A study of Homo sapiens with 6 samples.

Results

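The hyaluronan matrix genes described here are 10 genes, TNFAIP6, PTX3, HAS2, HAS3, CD44, VCAN, HYAL2, HYAL3, CEMIP and CEMIP2, picked by name from the 31831 genes of the count table for what their products do to hyaluronan, at a time when earlier results of these data were known. RNA-seq gave their levels in HK-2, an immortal human cell line derived from the epithelium of the proximal tubule of the kidney, held in 30 mM glucose over 72 h. Cells infected with an empty control lentivirus (HG-NC) and cells infected with a lentivirus that overexpresses hnRNP-F, an RNA-binding protein of splicing (HG-OE), gave 3 libraries each, so the infection and the high glucose were shared by both groups. The comparison asked which genes differed when hnRNP-F was raised in high glucose. The mannitol libraries were not analysed here.

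Hyaluronan is a very long, unsulfated sugar chain that synthases (HAS1, HAS2 and HAS3) spin out through the plasma membrane from UDP-sugars made in the cytosol. Outside the cell it is held by receptors such as CD44, organised by versican (VCAN), and in inflamed matrix crosslinked by TSG-6, the product of TNFAIP6, which moves the heavy chains of inter-alpha-inhibitor from the liver onto hyaluronan, and by pentraxin 3 (PTX3), whose multimers bind those heavy chains. Hyaluronidases (HYAL2, HYAL3) and the membrane-bound or secreted CEMIP and CEMIP2 proteins take part in its breakdown. In the kidney, hyaluronan is rich in the papilla and sparse in the cortex, where it is known to accumulate around injured tubules.

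Libraries held 25507595 to 29444841 counted read pairs, and the target of the construct, HNRNPF, rose from 311 ± 7.23 CPM, counts scaled to a fixed library total, to 435 ± 14.8 CPM (SD, n = 3 each), by 0.48 on the log2 scale (edgeR adjusted p = 2.8e-07) and with the groups apart. This count is of the human gene, and the study's methods give the same gene ID for its constructs in human and in mouse cells. How much of the construct's own RNA entered the count was not tested. The renal transcription factor PAX8 had 11953 to 18291 counts per library, but the proximal tubule gene AQP1 had at most 7. LRP2, another such gene, had 17 counts in HG-OE replicate 3 and 0 in every other library. HG-OE replicate 3 stood apart from the other 5 libraries. A list of 6 squamous epithelium genes summed to 0.0358 to 0.138 CPM in those 5 and to 38.4 CPM in HG-OE replicate 3, with KRT17 at 724 counts there, and KRT5 was at 0 in all 5 and at 334 in that library. A list of 6 liver genes summed to between 265 and 276 CPM in the HG-NC libraries and between 461 and 634 CPM with hnRNP-F, most of it SERPINA1, while ALB had 78 or fewer counts in 5 libraries and 4359 in HG-OE replicate 3. HG-OE replicate 3 was at least 2 times both other HG-OE libraries in 1.55% of the 17142 genes tested and in 3 of the 10 hyaluronan genes, HAS2, CEMIP and CEMIP2, so these are given with and without it. The part of those other transcripts in any result was not tested. In bulk RNA, fewer cells with a transcript and less of it per cell cannot be told apart.

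Of the 10 genes, 9 passed the filter on low counts, with HAS2 below it. By edgeR (quasi-likelihood F test, Benjamini-Hochberg adjusted p over the 17142 genes), HYAL2, HYAL3 and CEMIP2 rose, TNFAIP6, PTX3, HAS3 and CD44 fell, and VCAN and CEMIP did not pass an adjusted p of 0.05. That is 3 higher and 4 lower of 9, where 25.9% of all genes were higher and 25.9% were lower. A change of at least 2-fold was reached by 1 gene upward (CEMIP2) against 3.69% of all genes, and by 2 genes downward (TNFAIP6 and PTX3) against 2.13%. The groups did not overlap in 7 of the 9, against 59.0% of all genes. The median log2 fold change was -0.32 over the 9, which is the value of CEMIP, and 0.011 over all genes. The median had no stable direction, being 0.020 without HG-OE replicate 2 and -0.038 without HG-OE replicate 1.

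**Figure D1:**
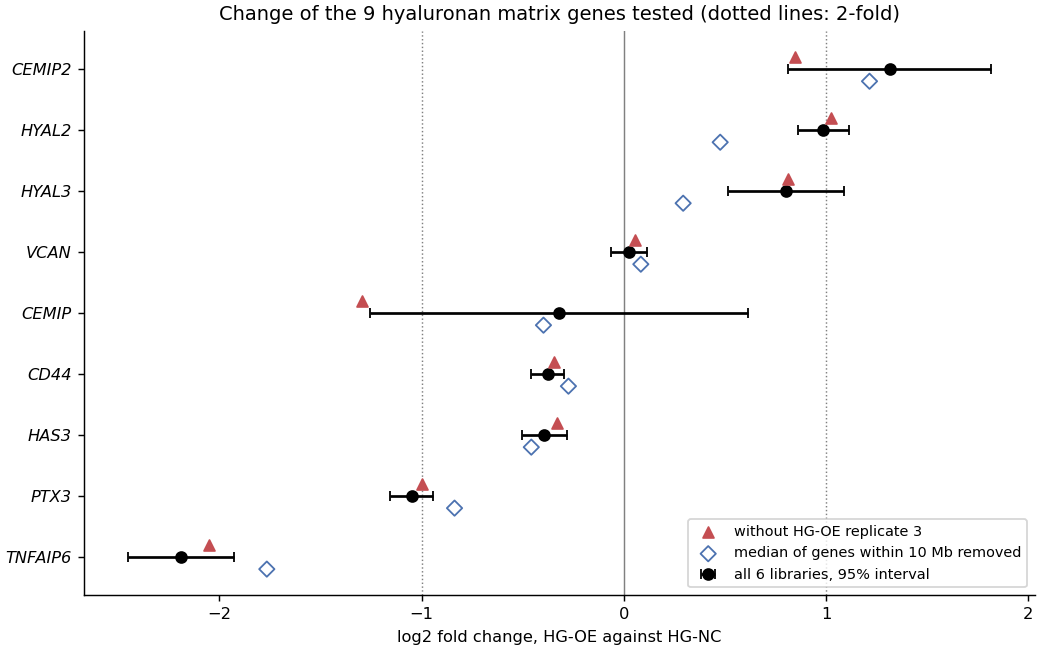
Log2 fold change (HG-OE against HG-NC, horizontal axis) of the 9 tested hyaluronan genes, with bars for the 95% interval of the edgeR fit and red triangles for the value without HG-OE replicate 3 and open diamonds for the value less the median of the genes within 10 Mb. TNFAIP6 at -2.19 lies farthest from 0, and the triangles of CEMIP (-1.30 against -0.32) and CEMIP2 (0.85 against 1.31) lie farthest from their circles.

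The crosslinkers TNFAIP6 and PTX3 changed most among the genes that fell. TNFAIP6 (ENSG00000123610.5, GRCh38 chromosome 2, 151357592 to 151380046, plus strand) stood at 34.1, 31.8 and 32.2 CPM in HG-NC replicates 1 to 3 and at 9.13, 6.63 and 5.74 CPM in the HG-OE replicates. Every HG-OE library was below every HG-NC library by a wide gap, the means being 32.7 ± 1.25 and 7.17 ± 1.76 CPM (SD, n = 3 each). The log2 fold change was -2.19 (SE 0.123, 95% interval -2.45 to -1.93, edgeR adjusted p = 1.16e-08), so HG-OE held 0.219 of the HG-NC level. PTX3 (ENSG00000163661.4, chromosome 3, 157436850 to 157443633, plus strand) was more abundant, at 267, 262 and 255 CPM in HG-NC. It fell to 135.5, 126 and 117 CPM in HG-OE, again with no overlap. Its log2 fold change was -1.05 (SE 0.0494, 95% interval -1.15 to -0.94, edgeR adjusted p = 2.42e-09), or 0.484 of the HG-NC level. Without HG-OE replicate 3 the values were -2.05 and -0.997, which puts PTX3 just short of a 2-fold change.

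TNFAIP6 had the larger fitted change of the pair. The ratio of their levels per length (FPKM, fragments scaled to the gene's length in kilobases and to library size) was 0.153, 0.145 and 0.151 in the HG-NC libraries and 0.0806, 0.0627 and 0.0584 in the HG-OE libraries. The log2 ratio differed by -1.17 between the groups with no overlap, and the exact two-sided permutation test gave p = 0.1, the smallest that 3 libraries against 3 allow (0.2 after adjustment over the 4 ratios compared). The PTX3 exons share 71 bases with VEPH1 on the other strand, whose own log2 fold change was -0.04, and TNFAIP6 shares none.

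The sequence before the start of each crosslinker gene is shown because the pair fell together and both are classic targets of inflammatory signalling. The 250 bases before the RefSeq start (GRCh38.p14, plus strand, 5′ to 3′) are chr2:151357342-151357591 for TNFAIP6 and chr3:157436600-157436849 for PTX3. Capitals mark matches to 3 motifs, chosen after these windows had been read and searched on both strands: NF-kB (by its consensus of 10 letters), AP-1 (TGANTCA) and C/EBP (TTGNGNAA).
TNFAIP6: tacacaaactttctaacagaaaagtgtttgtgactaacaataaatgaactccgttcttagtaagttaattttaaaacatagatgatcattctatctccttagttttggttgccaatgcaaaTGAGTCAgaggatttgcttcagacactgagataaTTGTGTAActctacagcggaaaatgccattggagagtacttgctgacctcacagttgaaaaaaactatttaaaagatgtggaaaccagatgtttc
PTX3: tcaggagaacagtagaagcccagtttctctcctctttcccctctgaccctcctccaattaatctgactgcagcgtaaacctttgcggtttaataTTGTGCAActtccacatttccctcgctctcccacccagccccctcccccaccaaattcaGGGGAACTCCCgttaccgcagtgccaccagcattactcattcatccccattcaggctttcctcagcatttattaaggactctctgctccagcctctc
In TNFAIP6 the AP-1 match began 129 bases and the C/EBP match 95 bases before the start, with no NF-kB match. In PTX3 a pair of overlapping NF-kB matches began 97 and 96 bases before the start and a C/EBP match 156 bases before it, with no AP-1 match. Matches of different motifs did not overlap. Of 34941 RefSeq windows of that length, 9.95% held the NF-kB motif, 6.59% the AP-1 motif and 10.9% the C/EBP motif, so single matches are common. Of the 10 genes, 9 had a window in the RefSeq table (HAS2 had none), and beyond this pair HYAL3 held an NF-kB match 51 bases before one of its starts and CEMIP a C/EBP match 141 bases before its start.

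The genes whose pattern over the 6 libraries lay closest to each crosslinker were ranked by the Euclidean distance of log2 CPM centred on each gene's mean, among the 12364 genes that averaged 100 or more counts. With 3 libraries in each group, that pattern is mostly the size of the group difference. Closest to TNFAIP6 were the kinase gene CAMK1D (distance 0.288, log2 fold change -2.07), the chemokine gene CXCL3 (0.293, -2.34) and FAM110C (0.333, -1.94). For PTX3 they were the host of small nucleolar RNAs SNHG1 (0.0712, -1.01), the cytokine gene IL6 (0.0805, -1.09) and FAM241A (0.0961, -1.01).

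**Figure D2:**
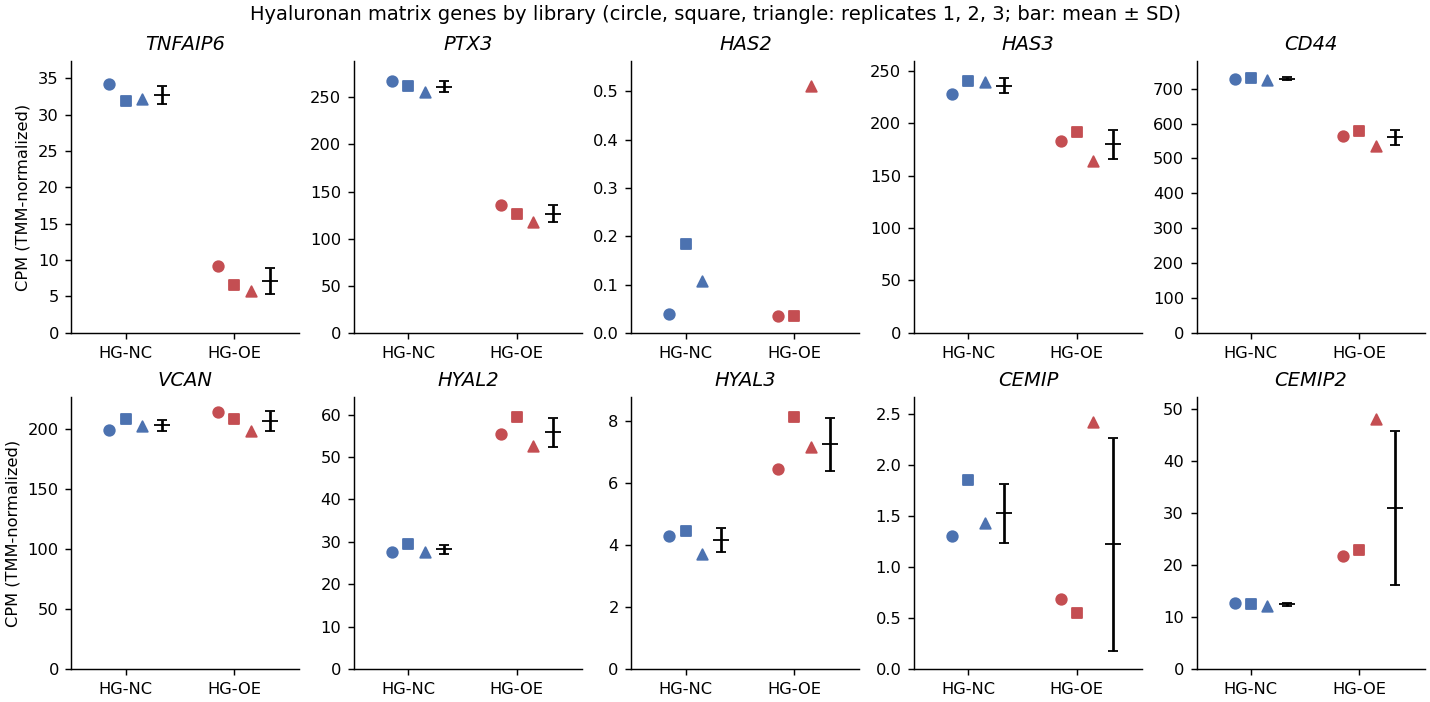
CPM of each of the 10 hyaluronan genes (vertical axis, linear from 0, own scale per panel) in the HG-NC and HG-OE libraries, with 1 point per library and the mean and SD beside the points of every gene but HAS2, which had at most 15 counts. The groups are apart for TNFAIP6, PTX3, HAS3, CD44, HYAL2, HYAL3 and CEMIP2, and HG-OE replicate 3 is the high point for HAS2, CEMIP and CEMIP2.

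Among the synthases, HAS3 carried nearly all of the reads. HAS3 (ENSG00000103044.11, chromosome 16, 69105653 to 69118719, plus strand) stood at 228, 240.5 and 239.8 CPM in HG-NC and 183, 192 and 164 CPM in HG-OE. All 3 HG-OE libraries were lower, with a log2 fold change of -0.39 (SE 0.0524, 95% interval -0.51 to -0.28, edgeR adjusted p = 2.92e-05), so HG-OE held 0.762 of the HG-NC level. HAS2, the synthase that injured and inflamed cells usually induce, had 1, 5 and 3 counts in HG-NC and 1, 1 and 15 in HG-OE. Of its 17 HG-OE counts, 88.2% came from replicate 3, and the other 2 libraries were at or under the limit of 3 counts that a count of 0 allows. A change in HAS2 was not detectable at this depth. The HAS2 antisense gene HAS2-AS1 had 0, 0 and 4 counts against 5, 4 and 9, and HAS1 had 3, 0 and 1 against 0 in every HG-OE library. HAS2 shares 251 exon bases with HAS2-AS1, and HAS3 shares 365 with genes on the other strand, of which DERPC had a log2 fold change of 0.02.

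CD44, the main cell surface receptor for hyaluronan, was the second most abundant of the set per length. It stood at 729, 732 and 723.5 CPM in HG-NC and 564.5, 580.1 and 537 CPM in HG-OE, with a gap between the groups much wider than the SD of 4.25 and 21.9 CPM. Its log2 fold change was -0.38 (SE 0.0371, 95% interval -0.46 to -0.30, edgeR adjusted p = 1.84e-06), which leaves 0.770 of the HG-NC level. The gene (ENSG00000026508.20, chromosome 11, 35138882 to 35232402, plus strand) shares 154 exon bases with genes on the other strand, and the count of CD44-AS1 among them also fell, by 0.66 on the log2 scale (edgeR adjusted p = 0.0166), a call lost without HG-NC replicate 2 (adjusted p = 0.0758). VCAN, the large proteoglycan that binds hyaluronan and CD44, stood at 199.5, 208 and 202.5 CPM in HG-NC and 214, 208.5 and 198 CPM in HG-OE. The groups overlapped, and the log2 difference of 0.03 had a 95% interval of -0.06 to 0.11 (edgeR adjusted p = 0.634).

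Of the breakdown genes, HYAL2, HYAL3 and CEMIP2 rose. HYAL2, the hyaluronidase anchored to the cell surface (ENSG00000068001.14, chromosome 3, 50317790 to 50322782, minus strand), stood at 27.7, 29.4 and 27.6 CPM in HG-NC and 55.4, 59.5 and 52.7 CPM in HG-OE. The lowest HG-OE library was well above the highest HG-NC library, with a log2 fold change of 0.99 (SE 0.0587, 95% interval 0.86 to 1.11, edgeR adjusted p = 1.93e-08). HYAL3 (ENSG00000186792.17, chromosome 3, 50292831 to 50299405, minus strand), a related gene with little known hyaluronidase activity of its own, was far lower, at 4.29, 4.47 and 3.72 CPM against 6.44, 8.14 and 7.17 CPM. Its log2 fold change was 0.80 (SE 0.134, 95% interval 0.51 to 1.09, edgeR adjusted p = 0.000202). The HYAL2 to HYAL3 ratio per length did not separate the groups (difference 0.18 on the log2 scale, exact permutation p = 0.3, adjusted 0.4). Both genes share exon bases with neighbours on the same strand, so their reads are uncertain there. HYAL2 shares 509 bases with TUSC2, which itself rose by a log2 fold change of 0.62, and HYAL3 shares 275 with IFRD2 (0.26) and NAA80 (0.92).

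CEMIP2, a transmembrane protein that takes part in cutting hyaluronan at the cell surface (ENSG00000135048.14, chromosome 9, 71683366 to 71816690, minus strand), stood at 12.6, 12.6 and 12.1 CPM in HG-NC and 21.8, 22.9 and 47.9 CPM in HG-OE. All HG-OE libraries were higher, but replicate 3 alone held 51.9% of the HG-OE counts. The log2 fold change was 1.31 (SE 0.233, 95% interval 0.81 to 1.82, edgeR adjusted p = 0.000333), and 0.85 (SE 0.0839, edgeR adjusted p = 1.9e-12) without replicate 3. CEMIP, its secreted relative (ENSG00000103888.17, chromosome 15, 80779343 to 80951776, plus strand), had 33, 50 and 40 counts in HG-NC and 20, 16 and 71 in HG-OE. HG-OE replicates 1 and 2 were below all HG-NC libraries and replicate 3 was above them, and it held 66.4% of the HG-OE counts. With all libraries the log2 fold change was -0.32 (95% interval -1.26 to 0.62, edgeR adjusted p = 0.566). Without replicate 3 it was -1.30 (SE 0.324, edgeR adjusted p = 0.000642), a fall of more than 2-fold. The log2 ratio of CEMIP to CEMIP2 per length differed by -1.89 with no overlap of the groups, replicate 3 included (exact permutation p = 0.1, adjusted 0.2). Without that library the 9 tested genes counted 3 higher and 5 lower, and the 2-fold calls became HYAL2 (1.03) upward and TNFAIP6 and CEMIP downward. Over all genes that fit called 4636 higher and 4719 lower, against 4446 and 4441 with all libraries. At 2-fold it called 626 higher and 457 lower, against 632 and 365. That fit was filtered anew and its number of genes tested is not given here, so no share stands beside its counts.

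**Figure D3:**
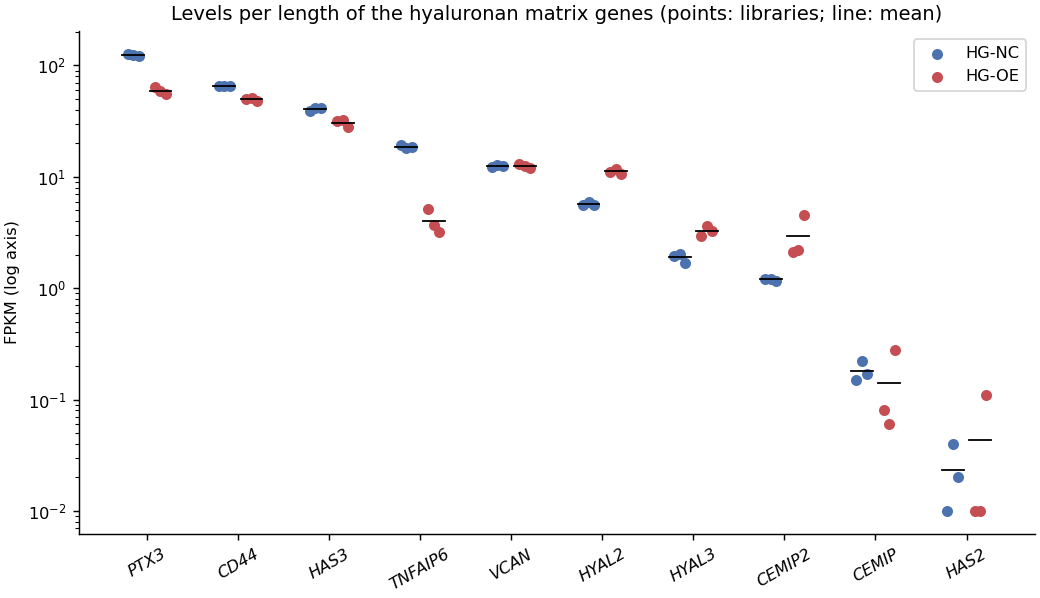
FPKM (log axis) of the 10 hyaluronan genes in HG-NC and HG-OE, with 1 point per library and a line at each mean, ordered by level in HG-NC. PTX3 is highest in both groups, and TNFAIP6 passes from above VCAN and HYAL2 in HG-NC to below them in HG-OE.

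Per length, the order of levels in HG-NC was PTX3 (124 ± 2.32 FPKM), CD44 (65.2 ± 0.205), HAS3 (40.6 ± 1.30), TNFAIP6 (18.6 ± 0.670), VCAN (12.4 ± 0.275), HYAL2 (5.70 ± 0.197), HYAL3 (1.89 ± 0.171), CEMIP2 (1.20 ± 0.0265), CEMIP (0.18 ± 0.0361) and HAS2 (0.02 ± 0.0153, SD, n = 3). No neighbours in that order overlapped. In HG-OE, PTX3 (59.4 ± 4.47 FPKM), CD44 (49.6 ± 1.86) and HAS3 (30.6 ± 2.37) kept the first 3 places, and PTX3 stood 1.20 times above CD44 where it had stood 1.90 times above it. TNFAIP6, at 4.03 ± 1.01 FPKM, came after VCAN (12.5 ± 0.525) and HYAL2 (11.2 ± 0.645). In HG-OE the libraries of TNFAIP6 overlapped those of HYAL3, those of HYAL3 overlapped CEMIP2, and those of CEMIP overlapped HAS2, so these neighbours are not ordered beyond their spread.

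Genes that lie near each hyaluronan gene on its chromosome were compared with it. Around HYAL2, 169 other genes within 10 Mb that averaged 100 or more counts a library had a median log2 fold change of 0.51, with 147 higher and 1 lower. HYAL2 lay 0.48 above that median and HYAL3 0.29, with 12 of the 169 and 31 of 170 neighbours above them. Around TNFAIP6 the median of 33 genes was -0.42 (2 higher, 28 lower), and TNFAIP6 lay 1.77 below it and below all 33. PTX3 lay 0.84 below the median of its 50 neighbours (-0.21) and below all of them. CEMIP2 lay 1.21 above its 25 neighbours (0.10) and above all of them, as HAS3 lay 0.46 below a median of 0.07 and CD44 0.27 below a median of -0.10. These comparisons used all libraries, with CEMIP2 at 1.31, against 0.85 without HG-OE replicate 3. The neighbours were not compared without that library. The part of these surroundings in each gene's change was not tested.

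**Figure D4:**
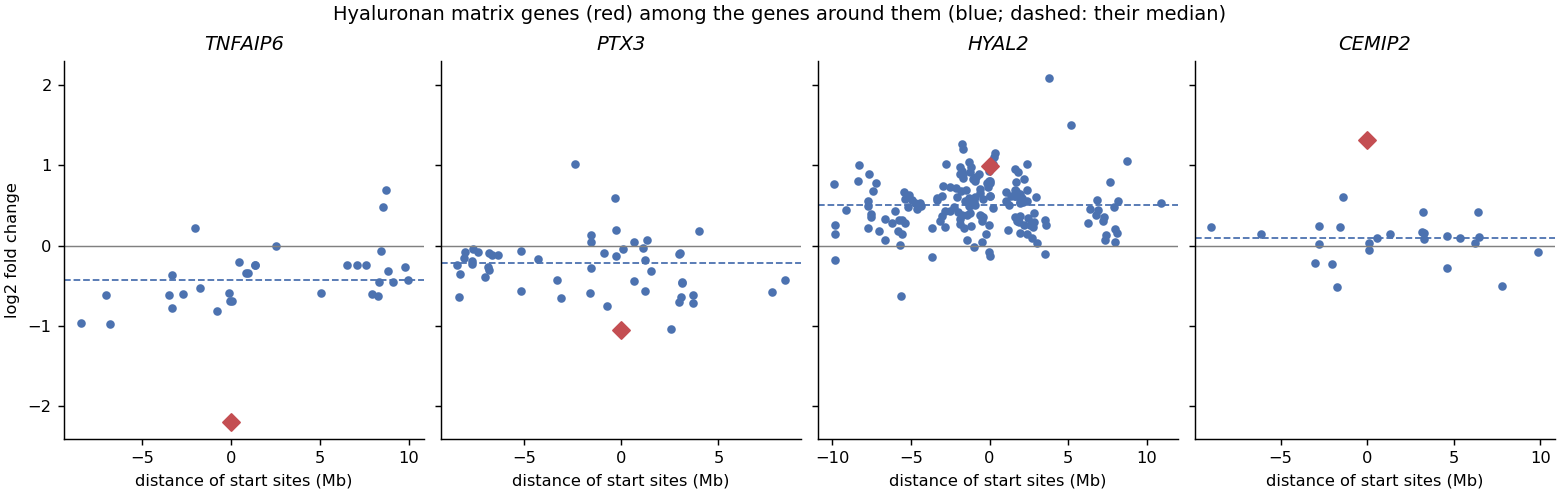
Log2 fold change (HG-OE against HG-NC) of TNFAIP6, PTX3, HYAL2 and CEMIP2 (red diamonds) and of the well-counted genes around them (blue points, dashed line at their median), against the distance between start sites in Mb. TNFAIP6 and PTX3 lie below and CEMIP2 above all their neighbours, while HYAL2 lies among neighbours whose median is 0.51. All values are from the fit with every library, HG-OE replicate 3 included.

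A list of 54 genes of hyaluronan and its matrix, which holds the 10, put these changes beside related genes. It covers synthesis and breakdown, and also receptors, hyalectans and link proteins, crosslinkers, versican-cleaving proteases and other pentraxins. The count table held 50 of them and 30 passed the filter, of which 12 rose and 11 fell, with a median log2 fold change of 0.0058, beside 25.9% of all genes tested in each direction and a median of 0.011. Outside the 10, 21 were tested, and 9 rose and 7 fell. Both the 12 and the 9 count AMBP, whose call rested on HG-OE replicate 3, and NPTX1. Both the 11 and the 7 count LAYN. NPTX1 and LAYN each passed the filter on low counts only through the group where they were high. The same share of 25.9% in each direction stands beside the count of every role given next, and each role holds few genes. Of the 6 breakdown genes tested, 5 rose and none fell with all libraries in the fit. Beside HYAL2, HYAL3 and CEMIP2 these were the lysosomal enzymes that finish the sugar chain, GUSB (log2 fold change 0.56) and HEXA (0.30), whose surroundings had medians of 0.08 and 0.04, where those of both HYAL2 and HYAL3 stood at 0.51. Of the 8 synthesis genes tested, 4 fell and 1 rose. UAP1 (-0.45), GFPT1 (-0.40) and UGP2 (-0.14), which make or feed the UDP-sugar precursors, fell with HAS3. The genes around them had medians of 0.09, -0.27 and -0.28, so UGP2 lay 0.15 above its surroundings. The call of UGP2 (edgeR adjusted p = 0.0236) was lost without HG-NC replicate 1 or 2 or HG-OE replicate 1 or 2, with adjusted p from 0.0536 to 0.109, which leaves 3 lower. GFPT2, the second isoform of the first enzyme of UDP-N-acetylglucosamine synthesis, rose from 2.80 ± 0.617 to 11.1 ± 1.07 CPM, a log2 fold change of 1.98 (SE 0.151, edgeR adjusted p = 1.80e-07) in surroundings with a median of 0.47.

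Of the 6 receptors tested, 2 rose and 2 fell, beside 25.9% of all genes tested in each direction. Layilin (LAYN), a C-type lectin that binds hyaluronan, had 72, 69 and 74 counts in HG-NC and 12, 9 and 23 in HG-OE. That is a log2 fold change of -2.40 (SE 0.294, edgeR adjusted p = 1.36e-05), with neighbours at a median of 0.00. LAYN passed the filter on low counts only through the HG-NC libraries, so its call is no independent support for a fall. TLR4, which hyaluronan fragments are reported to engage, had 47, 55 and 73 counts against 184, 172 and 196, with no overlap and a log2 fold change of 1.54 (SE 0.158, edgeR adjusted p = 2.70e-06). HMMR, the hyaluronan-mediated motility receptor of dividing cells, rose by 0.46 where its neighbours had a median of 0.31. TLR2 (-0.18, edgeR adjusted p = 0.0885) and STAB1 (0.58, edgeR adjusted p = 0.435) did not pass. Of the link proteins, HAPLN3 rose from 5.34 ± 0.559 to 8.33 ± 0.711 CPM (log2 fold change 0.64, edgeR adjusted p = 0.000587).

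Of the 4 versican-cleaving proteases tested, 3 fell, beside 25.9% of all genes tested, while VCAN did not pass the test. ADAMTS1 went from 128 ± 3.93 to 59.7 ± 1.12 CPM (log2 fold change -1.10, SE 0.0422, edgeR adjusted p = 4.68e-10) and ADAMTS5 from 10.9 ± 0.969 to 3.15 ± 0.524 CPM (-1.79, SE 0.136, edgeR adjusted p = 1.82e-07). These 2 genes are adjacent and share surroundings with a median of -0.24. ADAMTS9 fell by 0.61 on the log2 scale against neighbours at 0.35. ADAMTS15, in contrast, rose from 5.47 ± 0.938 to 12.2 ± 1.45 CPM (1.15, SE 0.135, edgeR adjusted p = 8.88e-06). A further pentraxin, NPTX1 of neurons, had 1, 4 and 9 counts in HG-NC and 23, 27 and 14 with hnRNP-F, its log2 fold change being 2.05 (SE 0.520, edgeR adjusted p = 0.00456) and 2.89 without HG-NC replicate 3. NPTX1 passed the filter on low counts only through the HG-OE libraries, so its call is no independent support for a rise. It is among the 12 genes of the list counted as higher.

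Inter-alpha-inhibitor supplies the heavy chains that TSG-6 moves to hyaluronan, and the genes ITIH1 to ITIH5 were too low to test. Of these, only ITIH2 (86) and ITIH4 (12) had over 8 counts in any library, both in HG-OE replicate 3. AMBP, which encodes the bikunin chain, had 17, 13 and 24 counts in HG-NC and 8, 11 and 2717 in HG-OE. Its call as higher (log2 fold change 5.53, SE 1.62, edgeR adjusted p = 0.0112) rested on HG-OE replicate 3, the library with 4359 ALB counts, and without it the log2 fold change was -1.03 (edgeR adjusted p = 0.053). The call was also lost without HG-NC replicate 1, 2 or 3, with edgeR adjusted p of 0.0678, 0.0673 and 0.0531. The median of the 3 crosslinking genes tested (TNFAIP6, PTX3 and AMBP) was -1.05, which is the value of PTX3 alone.

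**Figure D5:**
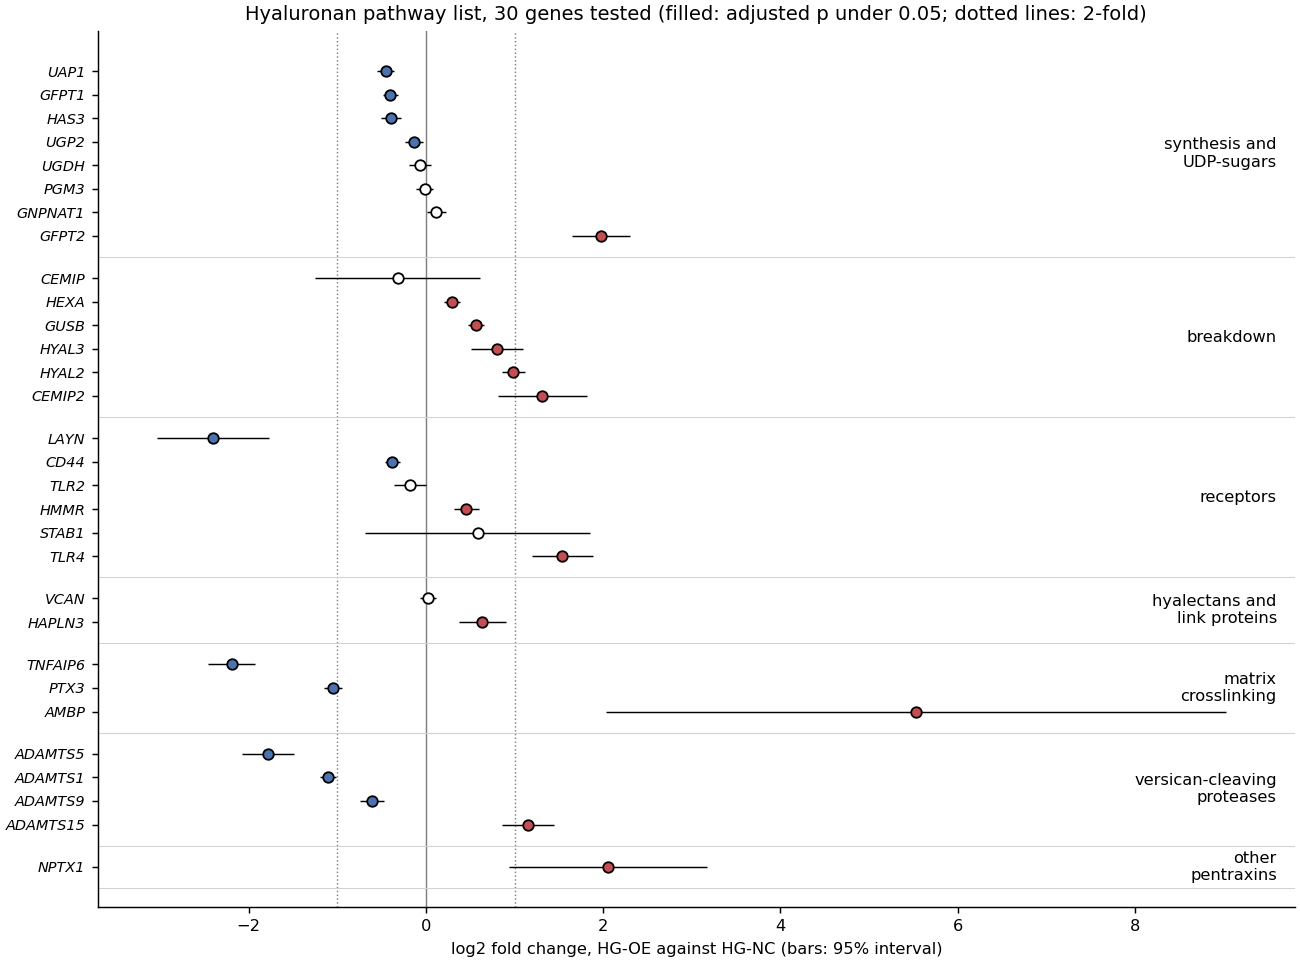
Log2 fold change (HG-OE against HG-NC) of the 30 tested genes of the hyaluronan list by role, with bars for the 95% interval and filled points for an adjusted p under 0.05. In the breakdown group 5 of 6 genes lie to the right of 0 and are called. In the synthesis group 4 of 8 are called to the left. Of all genes tested, 25.9% were called in each direction. The call of UGP2, among the 4, was lost without HG-NC replicate 1 or 2 or HG-OE replicate 1 or 2. Without HG-OE replicate 3, CEMIP was called lower (-1.30).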

How the data were processed

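Libraries of poly(A) RNA were sequenced as read pairs. The authors trimmed the reads and aligned them to GRCh38 with HISAT2, and deposited whole-number counts of uniquely mapped pairs per gene. FPKM values, also deposited by the authors and given to 2 decimals, were used for levels between genes. A correction by ComBat_seq is named in the study's methods. Its batches, whether it entered the counts, and the strand setting of the counting are not given in the sources used here, so genes that overlap on either strand are uncertain. The study's methods name parallel wells and not separate infections, while its results call the libraries biological replicates. Whether they came from separate infections is not stated, so p-values measure the spread between these libraries.

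The HG-NC and HG-OE libraries were compared in R 4.3.3 with edgeR 4.0.16 (TMM scaling, default filter on low counts, which kept 17142 of 31831 genes, quasi-likelihood test, Benjamini-Hochberg adjustment over all genes tested). CPM values are TMM-scaled. Calls needed an adjusted p below 0.05 and, where stated, a change of 2-fold or more. Ratios of 2 genes were tested with an exact two-sided permutation test. Alternatives were run with DESeq2 1.42.0 and limma 3.58.1, with other filters and pseudocounts, with the replicate number as a block, without each library in turn, and with the median of neighbouring genes removed. The edgeR, DESeq2 and limma fits were tested on simulated counts with 200 changed genes and the same spread in every library. No simulated library stood apart as HG-OE replicate 3 does, and the other steps were not simulated. Libraries totalled 25507595 to 29444841 counts. A gene listed at 0 may have had as many as 3, counting error alone considered.

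The 10 genes, the list of 54 (a further gene is not reported here) and the marker lists were chosen with earlier results of these data known. Named were the 10, HNRNPF, the genes of the list that changed at least 2-fold or most within a role at a mean of at least 100 counts, and the 3 genes closest in pattern to TNFAIP6 and to PTX3. Other genes were named after their values were seen, to complete a count or to describe overlaps. Positions come from GENCODE release 44, and promoter sequences from RefSeq on GRCh38.p14.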

Additional observations from a re-analysis of the deposited data

How the results depend on the processing

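Of 366 values recomputed under the alternatives, 338 kept their side of the threshold, or stayed within 1.5 times for a count, within the replicate SD for a median or a value with no test, or on their side of 0 for a ratio. Of these, 7 changed sign: CEMIP (0.029 without HG-OE replicate 2), VCAN (-0.0016 without HG-OE replicate 1) and, in 5 settings, the median of the list of 54 (0.0058, lowest -0.070 without HG-OE replicate 3). Calls at an adjusted p under 0.05 of TNFAIP6, PTX3, HAS3, CD44, HYAL2 and HYAL3 kept direction and call in every alternative with a test. Removing the median of neighbouring genes gives values with no test, and these kept their direction, with HYAL2 at 0.48 and HYAL3 at 0.29. CEMIP2 lost its call in limma on log2(FPKM + 1) without a filter (0.79, adjusted p = 0.0624), and CEMIP gained one without HG-OE replicate 3 (-1.30). The count of hyaluronan genes higher at 2-fold was 1, ran from 1 to 2 as each library was left out, and was 0 in limma on log2(FPKM + 1) with and without the filter. Their median of -0.32 was -0.16 with no low-count filter, ran from -0.37 to 0.020 as each library was left out (0.020 without HG-OE replicate 2), and was -0.055 and -0.023 in limma on log2(FPKM + 1) with and without the filter. It is the value of 1 thinly counted gene, CEMIP, in the 9. Over all genes, 632 were higher at 2-fold, against 1103 with no low-count filter, 370 at 10 or more counts in every library, and 76 and 70 in limma on log2(FPKM + 1) with and without the filter. The 365 lower were 68 and 68 in the latter, where the pseudocount shrinks low genes. The log2 ratio of HAS3 to HAS2 differed by -0.56 (exact permutation p = 0.8), ran from -1.18 to 0.65 as each library was left out, and was 0.65 without HG-OE replicate 3, with HAS2 at 1 to 15 counts. Without HG-OE replicate 3, a setting chosen for these role lists after seeing the data, synthesis genes higher went from 1 to 2, breakdown genes lower from 0 to 1 (CEMIP) and crosslinking genes higher from 1 to 0 (AMBP). With the replicate number as a block, 4399 genes were higher and 4450 lower, 622 and 368 of them at 2-fold, and no call of a hyaluronan gene changed. Deviations of same-numbered libraries correlated at -0.027, 0.030 and -0.00099 over the genes tested, so no pairing was seen at that scale. A link carried by few genes would not show there, and ALB was highest in replicate 3 of both groups (78 counts in HG-NC and 4359 in HG-OE). Whether those libraries share a step was not tested. HAS2, tested only when no low-count filter was used, had a log2 fold change of 0.76 there (edgeR adjusted p = 0.559). Depth limits HAS2, CEMIP and HYAL3 most.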

Other observations

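Several transcripts of plasma proteins that the liver makes were highest in HG-OE replicate 3, and some had a trace in HG-NC replicate 3. ITIH2, a heavy chain of inter-alpha-inhibitor, had 0, 0 and 3 counts in HG-NC and 0, 0 and 86 in HG-OE. APOB had 5, 0 and 53 counts in HG-NC and 0, 0 and 1583 in HG-OE. ALB had 4, 1 and 78 counts in HG-NC and 0, 1 and 4359 in HG-OE. Other genes of the liver list were present in every library. SERPINA1 had 6990 to 7221 counts in HG-NC and 13250, 13347 and 11560 in HG-OE, so replicate 3 was the lowest HG-OE library, and FGB had 24, 29 and 55 counts in HG-NC and 124, 134 and 994 in HG-OE. CRP, the short pentraxin of the liver, had 17 counts in HG-NC replicate 3, 1 in HG-OE replicate 3 and 0 in the other 4 libraries, so its order was the opposite. HYAL1, the lysosomal hyaluronidase, had 2, 2 and 4 counts in HG-NC and 4, 4 and 18 in HG-OE, with the highest value again in HG-OE replicate 3. The part of the liver transcripts in these values was not tested.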
